A study of Mus musculus with 35 samples.

Results

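The genes described here make, hold or restrain caveolae and the transport they carry across vessel walls. They are the caveolin genes *Cav1* and *Cav2*, cavin genes *Cavin1*, *Cavin2* and *Cavin3*, the neck ATPase gene *Ehd2*, *Plvap* and *Mfsd2a*. They were chosen by name for these roles, with earlier results of these data known, and are 8 of the 53465 genes in the bulk table. Their levels were measured in wild-type mouse brain at E14.5, in 4 populations separated by FACS with antibodies, which were endothelial cells, mural cells, microglia and neural cells. Bulk RNA-seq covered 12 libraries, 1 of each population from each of 3 brains, with 17638358 to 98414914 reads on genes. The titles give each brain a number, and in the order of those numbers they are called the first, the second and the third brain. Values of 3 libraries are given in this order. The endothelial gate was PECAM1+ CD102+, the mural gate PDGFRβ high, the microglia gate CD45 medium CD11b+, and the neural gate negative for all of these and for CD41. Single cells sorted into wells of 3 plates and sequenced with mCEL-Seq2 gave 225 endothelial, 210 mural, 128 microglia and 123 neural cells with more than 1500 transcripts, by sort gate. No treatment or mutant allele enters any group used here, and the strain and the brains behind each plate are not given in the sources used here, so that p-values over plates measure the spread between plates.

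Caveolae are flask-shaped pits of the plasma membrane. Caveolins sit in the membrane, cavins coat it from the cytosol, and an ATPase sits at the neck. In most capillaries caveolae that leave the surface carry plasma proteins across the endothelial cell, which is called transcytosis. In brain endothelium this route is held low as the blood-brain barrier forms. The lipid transporter MFSD2A restrains it, and PLVAP, which builds the diaphragm across caveolae and fenestrae, is known to be lost from brain vessels as they mature.

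In each bulk population the markers of its own cell type were far above those of the others. The 7 endothelial markers, among them *Pecam1*, *Cdh5* and *Cldn5*, summed to 156473 to 185692 normalized counts in the endothelial libraries, 822 to 1353 in the mural, 1482 to 1737 in the microglia and 98.0 to 117 in the neural libraries. The 6 mural markers summed to 698561 to 749860 in mural libraries and to 3955 to 6965 in endothelial ones. The mural libraries also held fibroblast markers, at 8873 to 11803 against 2.84 to 236 in the endothelial libraries, where *Col1a2*, *Dcn*, *Lum* and *Pdgfra* were at 0. Of the 6 genes of this list *Col3a1* (5837 ± 922, SD, n = 3) and *Col1a2* (3469 ± 505) held most of the mural sum, while *Pdgfra* was at 0.313 ± 0.542 in mural cells, below microglia (41.9 ± 39.4) and neural cells (151 ± 7.47). The endothelial libraries held erythroid markers at 12168 to 32942, against 242 to 402 in the mural ones. The part of either in the levels below was not tested. The neural libraries were made with another RNA and library kit than the other 9, so for any difference from neural cells the kit and the cell type cannot be told apart. Among the single cells 1 set stands apart: the endothelial gate of plate 3 had 13 cells, where the endothelial markers summed to 2253 CPM (transcripts scaled by the total of all genes) and the mural ones to 2910, against 6106 and 468 on plate 1 and 5503 and 102 on plate 2. Endothelial shares at full depth, differences from the mural gate and part of the co-detection are given with and without plate 3. No well had the same counts as another among the 686 cells kept.

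*Cav2* and *Cav1* are neighbours on chromosome 6 and read in the same direction. In GRCm38, *Cav2* lies at chr6:17281185-17289115 and *Cav1* at chr6:17306335-17341452 on the forward strand, with 17219 bases between them. The antisense gene *Gm15581* overlaps both on the opposite strand and shares no exon base with either. The 250 bases upstream of their start sites are shown because the neighbours differed in mural cells, with those of *Cavin2*, the lowest of the 8 genes in endothelial cells per kilobase, and *Mfsd2a*, the highest in neural cells. The sequences are from RefSeq (GRCm38.p6), 5′ to 3′ on the strand of the gene. Of the 8 genes 6 were matched to a start site, and *Plvap* and *Cavin3* were not. Capitals mark the motifs searched on both strands: CCGGAA, the core bound by ETS factors, AACAAT, bound by SOX factors, and TATAAA, the TATA box.
*Cav2*, chr6:17280935-17281184, forward strand: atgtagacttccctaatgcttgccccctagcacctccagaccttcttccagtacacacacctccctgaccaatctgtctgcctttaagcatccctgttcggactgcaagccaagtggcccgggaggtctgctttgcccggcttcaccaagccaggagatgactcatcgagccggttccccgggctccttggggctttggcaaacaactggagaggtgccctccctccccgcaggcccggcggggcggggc
*Cav1*, chr6:17306085-17306334, forward strand: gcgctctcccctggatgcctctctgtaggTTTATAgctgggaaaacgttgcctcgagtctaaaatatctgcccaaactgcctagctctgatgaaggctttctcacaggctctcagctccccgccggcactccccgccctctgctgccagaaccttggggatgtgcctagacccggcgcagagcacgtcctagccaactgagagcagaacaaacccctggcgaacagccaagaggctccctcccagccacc
*Cavin2*, chr1:51288876-51289125, forward strand: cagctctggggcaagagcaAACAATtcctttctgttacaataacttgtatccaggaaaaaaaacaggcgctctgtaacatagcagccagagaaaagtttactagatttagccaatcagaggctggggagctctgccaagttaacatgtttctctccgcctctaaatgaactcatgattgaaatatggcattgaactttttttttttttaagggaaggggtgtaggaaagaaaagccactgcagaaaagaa
*Mfsd2a*, chr4:122961189-122961438, reverse strand: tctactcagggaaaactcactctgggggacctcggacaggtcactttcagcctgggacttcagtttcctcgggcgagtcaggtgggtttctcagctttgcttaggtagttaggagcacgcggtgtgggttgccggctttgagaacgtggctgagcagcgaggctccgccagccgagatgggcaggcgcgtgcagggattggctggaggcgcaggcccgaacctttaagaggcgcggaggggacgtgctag
The search found TATAAA on the opposite strand of the *Cav1* window, 221 bases upstream of the start, and AACAAT on the gene strand of the *Cavin2* window, 231 bases upstream. None of the 3 motifs was in the *Cav2* or *Mfsd2a* window, nor in those of *Ehd2* and *Cavin1*. *Cav1* has a second start-site window (chr6:17307390-17307639), which is not shown and held none of them either. Over 32851 windows of the same length, CCGGAA stood in 12.03%, AACAAT in 9.42% and TATAAA in 12.4%. The *Cavin2* window had a GC content of 40.4%, and the other windows of the 6 genes 58% to 67.6%.

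The first question was where in the brain these genes are expressed. Normalized counts rank samples for 1 gene, and levels per kilobase of exon rank genes within a population. In endothelial cells the order per kilobase was *Cavin1* (6095 ± 2379, SD, n = 3), *Plvap* (3506 ± 2581), *Mfsd2a* (3056 ± 526), *Cavin3* (2252 ± 652), *Ehd2* (1088 ± 480.1), *Cav1* (768 ± 158), *Cav2* (615 ± 55.3) and *Cavin2* (526 ± 184). The gap between neighbours was wider than the larger of their SDs for *Cavin1* and *Plvap*, *Mfsd2a* and *Cavin3*, and *Cavin3* and *Ehd2*, and narrower for the other neighbours. In mural cells *Cavin1* also led (1243 ± 327), followed by *Cavin3* (698 ± 163) and *Cav2* (398 ± 187), while *Mfsd2a* was last (15.3 ± 18.4). In neural cells *Mfsd2a* led (342.7 ± 37.0) and *Cav1* was second (77.7 ± 12.6). In microglia no gene exceeded *Cav2* (67.5 ± 40.9). Bulk libraries cannot tell fewer cells of a type from less RNA per cell.

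**Figure D1:**
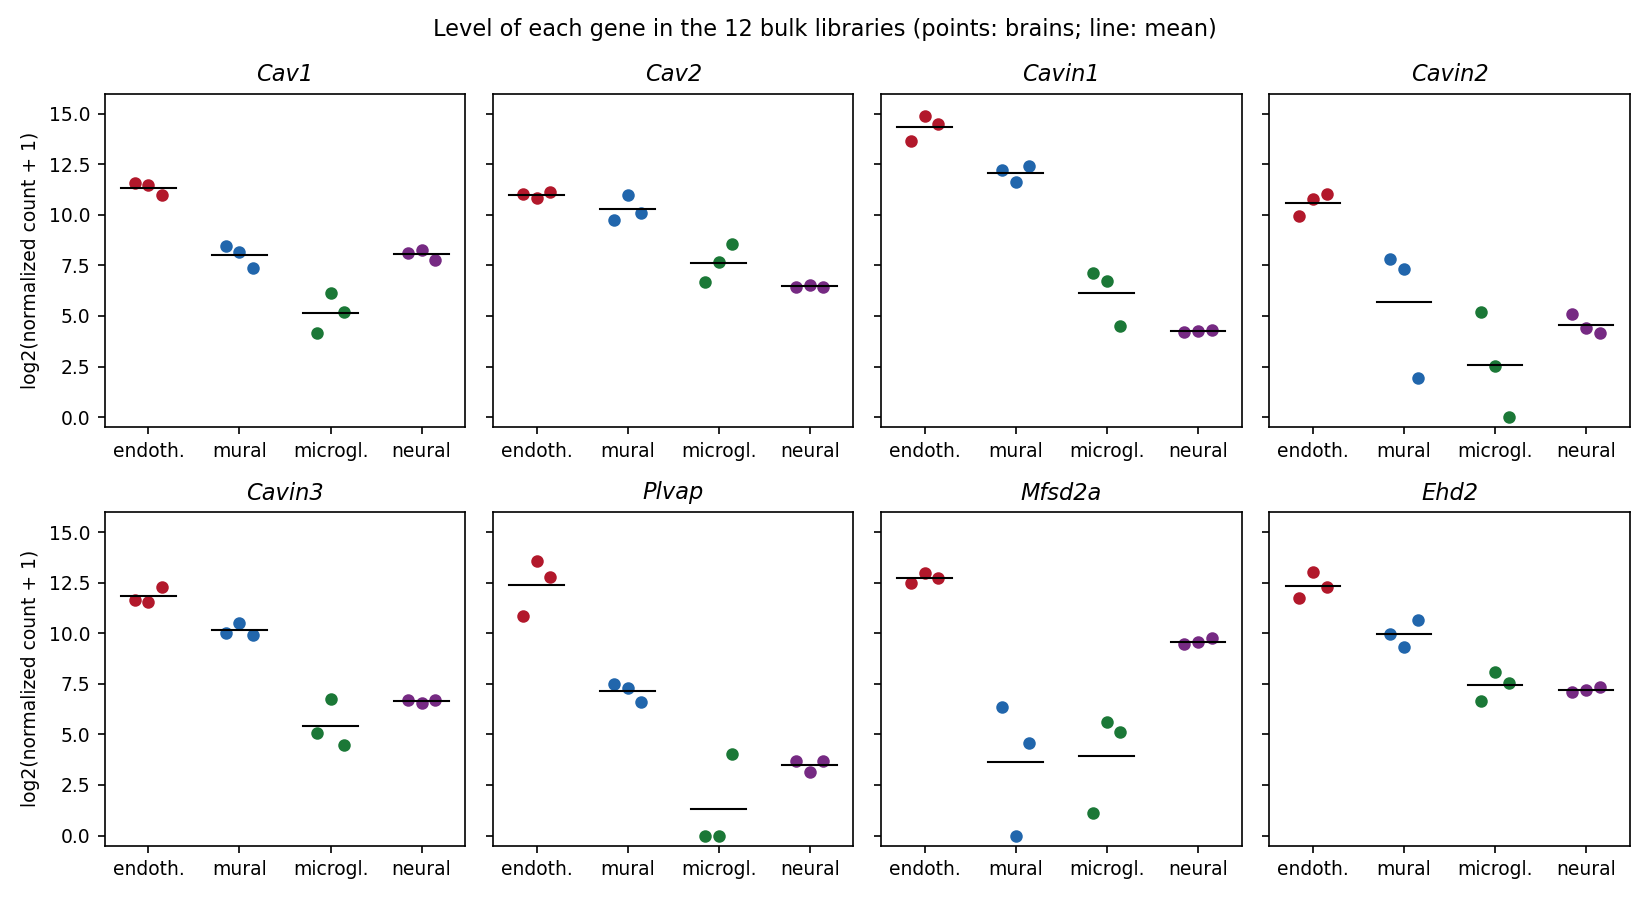
Level of each of the 8 genes in the 12 bulk libraries, as log2(normalized count + 1), with 1 point per brain and a line at the mean of the 3 brains. The endothelial points lie above all others for 7 of the 8 genes, and for *Cav2* the mural library of the second brain reaches them.

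All 8 genes had their highest mean in endothelial cells. In 7 of 8 the 3 endothelial libraries lay above all 9 others, against 6.28% of the 19765 genes tested, and in the same 7 they lay above all mural libraries, against 17.7%. Against the mean of the other 3 populations, 7 of 8 were enriched over 10-fold with an adjusted p under 0.05 in limma, where 6.28% of all genes tested were. The difference ran from 2.88 ± 0.36 (SE) for *Cav2*, the gene that missed the 10-fold limit (adjusted p = 0.00013), to 8.40 ± 0.86 for *Plvap* (adjusted p = 2.9e-05), on the log2(normalized count + 1) scale. The median of the 8 was 5.37, and that of all genes tested was -0.12. Among the 9 libraries of the shared kit, without neural cells, the number enriched was again 7, where 972 of the 19765 genes tested were.

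*Cav1*, which encodes the caveolin that caveolae outside muscle cannot form without, had 3048, 2862 and 2029 normalized counts in the endothelial libraries. The mural libraries had 357, 288 and 166, the neural libraries 276, 306 and 220, and the microglia 16.6, 70.0 and 35.3. The endothelial libraries stood clear of the rest, mural and neural libraries overlapped, and microglia were lowest. The difference between endothelial and mural cells was 3.33 ± 0.49 (adjusted p = 0.0005). That between mural and neural cells was -0.04 ± 0.49 (adjusted p = 0.96), and its sign turned with the scaling. Microglia fell by 2.90 ± 0.49 against neural cells (adjusted p = 0.00041).

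*Cav2* encodes the caveolin that assembles with CAV1 and had another pattern. Its endothelial libraries had 2086, 1854 and 2219 normalized counts, and its mural libraries 854, 2036 and 1096. Mural and endothelial levels overlapped, and the mural mean was 64.7% of the endothelial one, the highest such share among the 8 genes. The difference of 0.72 ± 0.45 did not pass the test (adjusted p = 0.26). Microglia had 99.8, 205 and 370.1, and neural cells 84.1, 92.5 and 85.3. *Cav2* was higher in mural cells than in microglia by 2.65 ± 0.45 (adjusted p = 0.00074) and than in neural cells by 3.81 ± 0.45 (adjusted p = 3.6e-05). The ratio of *Cav1* to *Cav2* per kilobase was 1.42, 1.49 and 0.885 in the endothelial libraries and 0.404, 0.137 and 0.147 in the mural ones, so the ranges did not overlap.

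*Cavin1* encodes the cavin that caveolae need in all tissues. It had 12910, 29902 and 22781 normalized counts in endothelial cells and 4806, 3150 and 5418 in mural cells. Microglia had 137, 107 and 21.4 and neural cells 17.4, 18.3 and 18.8, so the 4 populations were ordered without overlap. The endothelial excess was 2.25 ± 0.59 over mural cells (adjusted p = 0.016), 8.22 ± 0.59 over microglia (adjusted p = 1.2e-06) and 10.08 ± 0.59 over neural cells (adjusted p = 2.2e-07). Without the second brain the endothelial to mural difference was 1.75 (adjusted p = 0.2), and with quantile normalization it was 2.18 (adjusted p = 0.072). *Cavin1* was also 5.97 ± 0.59 higher in mural cells than in microglia (adjusted p = 1.4e-05).

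*Cavin2*, for a cavin that bends the membrane, had 989, 1745 and 2087 normalized counts in endothelial cells. Mural libraries had 227, 161 and 2.82, microglia 35.7, 4.74 and 0, and neural cells 33.4, 19.9 and 16.6. The mural library of the third brain was thus below all neural libraries, and the other two above them. The endothelial to mural difference was 4.88 ± 1.55 (adjusted p = 0.038), and it ran from 2.77 without the third brain (adjusted p = 0.1) to 6.26 without the first brain (adjusted p = 0.058). Without the second brain it was 5.61 (adjusted p = 0.16). It also missed the threshold in edgeR on the recovered reads (adjusted p = 0.074) and with no filter (adjusted p = 0.065). No difference among mural cells, microglia and neural cells passed the test for this gene, although mural cells were higher than microglia without the third brain (adjusted p = 0.034) and in DESeq2 on the recovered reads (adjusted p = 0.02).

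*Cavin3*, for the cavin also known as PRKCDBP, had 3259, 2987 and 4985 normalized counts in endothelial cells and 1035, 1471 and 975 in mural cells. The groups did not overlap, and the mural mean was 31.0% of the endothelial one. Neural cells had 103, 92.5 and 104, and microglia 32.1, 106 and 21.4. The endothelial to mural difference was 1.68 ± 0.50 (adjusted p = 0.028). It lost its call without the first brain (adjusted p = 0.17), without the third brain (adjusted p = 0.16) and with quantile normalization (adjusted p = 0.1). *Cavin3* shares 374 exon bases with *Gm45667* on the opposite strand, and whether reads were counted by strand is not given in the sources used here.

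*Ehd2*, for the ATPase that holds caveolae at the surface, had 3443, 8260 and 5004 normalized counts in endothelial cells and 1003, 636 and 1626 in mural cells. Microglia had 99.8, 268 and 185 and neural cells 138, 144 and 162, which overlap. The endothelial to mural difference was 2.37 ± 0.45 (adjusted p = 0.0025), with 1.70 without the second brain (adjusted p = 0.04), and mural cells were higher than microglia by 2.56 ± 0.45 (adjusted p = 0.00094).

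*Plvap*, for the diaphragm protein, had 1834, 12091 and 6977 normalized counts in the endothelial libraries. Its highest was 6.59 times its lowest, the widest endothelial spread of the 8 genes. Mural libraries had 177, 155 and 97.7, neural libraries 12.02, 7.75 and 11.9, and microglia 0, 0 and 15.1. All endothelial libraries were above all others. The endothelial to mural difference was 5.26 ± 1.05 (adjusted p = 0.0036), with 6.21 without the first brain (adjusted p = 0.021) and 4.75 without the second (adjusted p = 0.065). The mural level was 9.65%, 1.28% and 1.40% of the endothelial one in the 3 brains, while the 7 endothelial markers in mural libraries were between 0% and 3.08% of theirs. The first brain thus lay above all markers and the others within their range. Whether endothelial RNA adds to the mural value was not tested.

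*Mfsd2a*, for the lysophospholipid transporter that restrains caveolar transcytosis, had 5668, 8034 and 6923 normalized counts in endothelial cells. The neural libraries had 702, 747 and 864, the mural libraries 80.4, 0 and 22.5, and the microglia 1.19, 47.4 and 34.0. It was the only one of the 8 genes for which neural cells came second, with a mean 11.2% of the endothelial one. The endothelial markers in the neural libraries reached at most 0.276% of their endothelial level. The endothelial to mural difference was 9.10 ± 1.47 (adjusted p = 0.00097), with 10.59 without the first brain (adjusted p = 0.0042) and 7.16 without the second (adjusted p = 0.014), and the mural minus neural difference was -5.95 ± 1.47 (adjusted p = 0.0055). The endothelial to neural difference was 3.15 ± 1.47 and did not pass the test in limma (adjusted p = 0.089), although the groups did not overlap. It passed with a pseudocount of 10 (adjusted p = 0.0039), in edgeR (adjusted p = 0.018) and in DESeq2 (adjusted p = 0.025) on the recovered reads. Across alternatives its adjusted p ran from 0.0039 to 0.29. The ratio of *Plvap* to *Mfsd2a* per kilobase was 0.366, 1.70 and 1.14 in the endothelial libraries of the 3 brains.

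**Figure D2:**
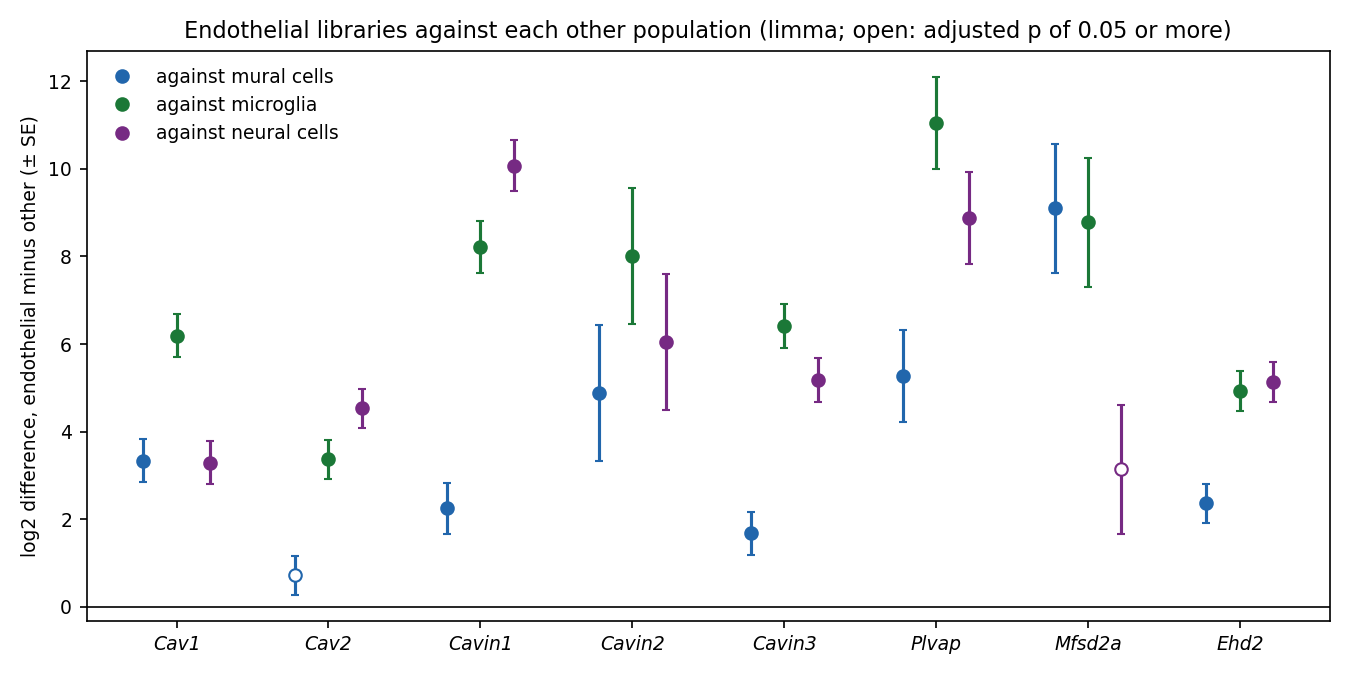
Difference between the endothelial libraries and each other population on the log2(normalized count + 1) scale, ± SE, from limma. Open points have an adjusted p of 0.05 or more: they are *Cav2* against mural cells (0.72) and *Mfsd2a* against neural cells (3.15).

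Of the 8 genes, 7 were higher in endothelial than in mural cells and none was lower. Over all genes tested 14.3% were higher and 13.5% lower. The number was 8 of 8 against microglia, where 15.3% of all genes were higher and 17% lower, and 7 of 8 against neural cells, where 27.1% were higher and 30.6% lower. None of the 8 was lower in either. Without the second brain *Cavin2* passed neither against microglia (adjusted p = 0.056) nor against neural cells (adjusted p = 0.082). Mural cells in turn were higher than microglia for 6 of 8 genes, against 17.9% of all genes, and lower for none, against 20.1%. The other two were *Cavin2* and *Mfsd2a*. Mural cells were higher than neural cells for 5 of 8, against 25.8%, and lower for 1, *Mfsd2a*, against 28.7%. In that comparison *Plvap* lost its call without the first brain (adjusted p = 0.065) and without the second brain (adjusted p = 0.098), and *Mfsd2a* without the third brain (adjusted p = 0.069). Between microglia and neural cells 4 of 8 differed. *Cav2* and *Cavin1* were higher in microglia, as were 29.3% of all genes, and *Cav1* and *Mfsd2a* lower, as were 30.4%. *Cavin1* did not pass without the first brain (adjusted p = 0.17) or with quantile normalization (adjusted p = 0.13), nor *Cav2* with no filter (adjusted p = 0.06). Without the second brain neither *Cav2* (adjusted p = 0.15) nor *Cavin1* (adjusted p = 0.16) passed and *Cavin3* was lower in microglia (adjusted p = 0.006), and without the third brain *Cav2* (adjusted p = 0.33) and *Mfsd2a* (adjusted p = 0.069) did not. *Plvap* was lower in microglia without the third brain (adjusted p = 0.03) and with quantile normalization (adjusted p = 0.016). The count for endothelial against mural cells was 5 without the first brain, 4 without the second brain and 5 without the third brain. Of all 19765 genes 3956, 3517 and 3996 differed in these fits, in either direction. These comparisons share libraries and are not independent.

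The make-up of the cavin coat was compared between the vascular populations. Per kilobase, *Cavin1* made up 61.2%, 77.9% and 63.3% of the summed cavin level in the endothelial libraries and 65.8%, 48.4% and 72.0% in the mural ones. *Cavin3* made up 33.3%, 16.8% and 29.9% in endothelial and 30.6%, 48.7% and 28.0% in mural libraries, so both genes overlapped between the populations. *Cavin2* was a small part in each, with 5.501%, 5.33% and 6.81% in endothelial and 3.65%, 2.90% and 0.0440% in mural libraries. Only for *Cavin2* were the endothelial shares all above the mural ones, by 3.68 percentage points. An exact permutation test gave two-sided p = 0.1, the smallest that 3 against 3 can give. The differences for *Cavin1* (5.40 points, exact p = 0.6) and *Cavin3* (-9.09 points, exact p = 0.5) were within the spread of the libraries. The related muscle genes differed: *Cav3* was listed at 0 in all 12 libraries, and *Cavin4* had its highest level in neural cells (243 ± 25.4, SD, n = 3), against 29.4 ± 35.9 in endothelial cells.

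**Figure D3:**
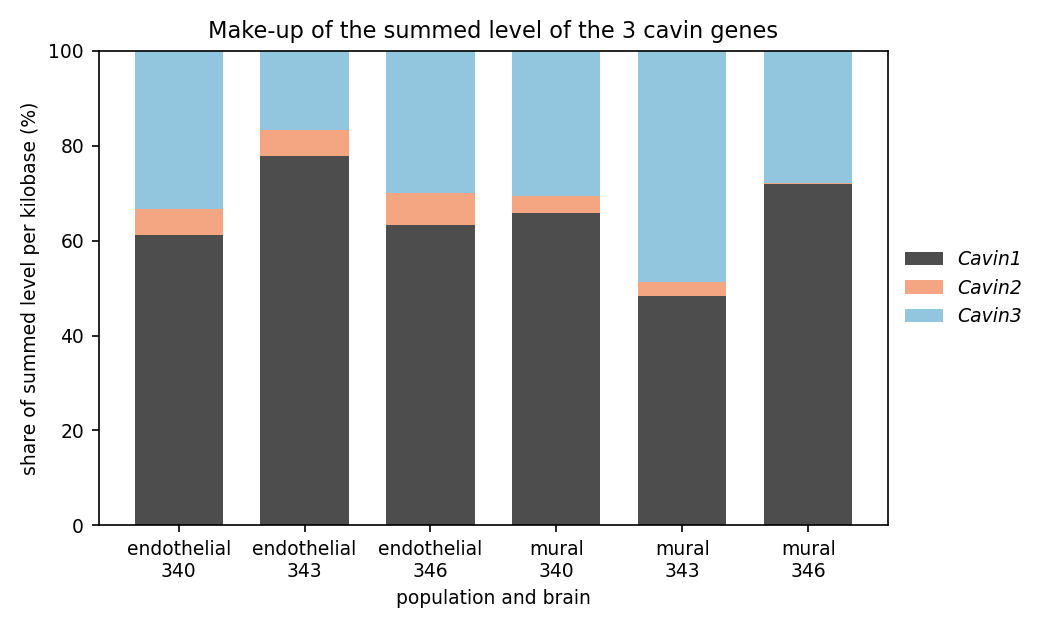
Share of *Cavin1*, *Cavin2* and *Cavin3* in their summed level per kilobase of exon, in percent, for each endothelial and mural library by brain. *Cavin2* takes 5.33% to 6.81% in endothelial libraries and 0.0440% to 3.65% in mural ones.

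Single cells show how many cells carry each transcript. A median of 3 of the 8 genes was found per endothelial cell and 1 per mural cell, against 0 in microglia and neural cells. At least 1 of the 8 was found in 91.1% of endothelial and 66.7% of mural cells, and in 22.7% of microglia and 26.0% of neural cells. Without plate 3 the endothelial median was again 3, and 92.5% of the 212 cells had at least 1. Median depths were 6408, 6885, 10761 and 7717 transcripts per cell in this order of gates. *Mfsd2a* was found in 164 of 225 endothelial cells, or 72.9% (exact 95% interval 66.6 to 78.6), and *Cavin1* in 61.8% (55.1 to 68.2). *Cavin3* was found in 49.3% (42.6 to 56.1), *Plvap* in 42.7% (36.1 to 49.4) and *Ehd2* in 32.9% (26.8 to 39.4). *Cav1* was found in 26.2% (20.6 to 32.5), *Cav2* in 22.7% (17.4 to 28.7) and *Cavin2* in 15.1% (10.7 to 20.5). Intervals cover counting error only.

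The mural gate held *Cavin1* in 38.6% of cells (31.95 to 45.5), *Cavin3* in 30.5% (24.3 to 37.2), *Ehd2* in 21.4% (16.1 to 27.6) and *Cav2* in 11.4% (7.46 to 16.5). The share of *Cav2* overlapped with that of the microglia gate, also with every cell at 1500 transcripts (3.07% and 1.80%). *Plvap* (5.71%), *Cav1* (3.33%), *Cavin2* (2.38%) and *Mfsd2a* (0.952%) were found in few. The microglia gate was taken as the background, although bulk microglia held *Cav2* at 99.8 to 370.1 normalized counts. The shares there were 0% to 3.91% for 7 of the genes and 8.59% for *Cav2* (4.37 to 14.9). The neural gate had *Mfsd2a* in 17 of 123 cells, or 13.8% (8.26 to 21.2), *Cavin3* in 8.13%, and *Cav2* in 0 of 123 cells, which allows up to 2.44% of cells with a transcript by the floor of 3 (exact upper bound 2.95%) and sets no limit on cells that express it. With every cell at 1500 transcripts, which left out no cell, the expected endothelial shares fell to 37.97% for *Mfsd2a*, 26.6% for *Cavin1*, 19.0% for *Plvap* and 16.4% for *Cavin3*, and the mural shares to 0.147%, 10.6%, 1.05% and 9.37%. Without plate 3 the endothelial shares were 74.5% for *Mfsd2a*, 64.2% for *Cavin1*, 50.5% for *Cavin3*, 44.8% for *Plvap*, 34.4% for *Ehd2*, 27.4% for *Cav1*, 23.6% for *Cav2* and 16.04% for *Cavin2*.

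**Figure D4:**
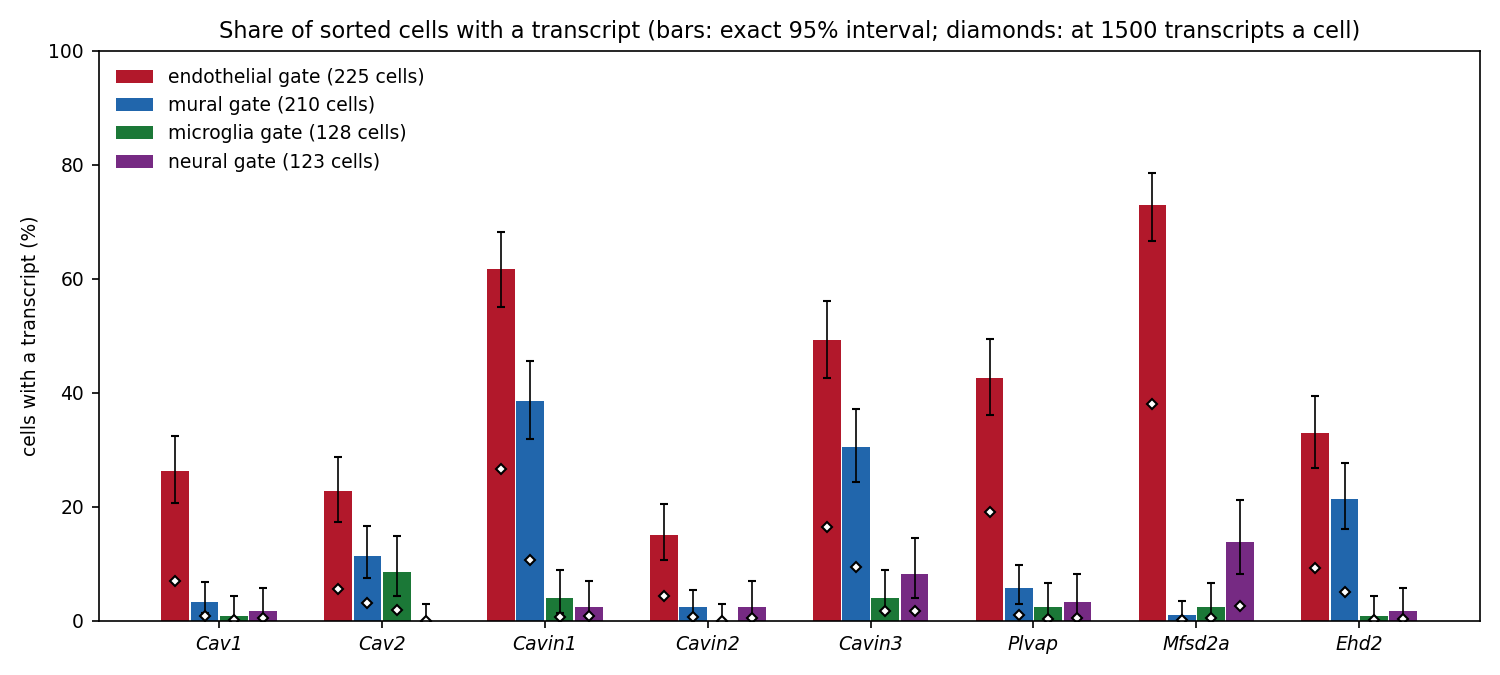
Percent of cells of each sort gate with at least 1 transcript of the gene, with exact 95% intervals, and the expected share with every cell at 1500 transcripts as diamonds. The endothelial bar is the highest for all 8 genes, and the mural bar reaches 38.6% for *Cavin1*, 30.5% for *Cavin3* and 21.4% for *Ehd2*.

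Sums of transcripts per plate and gate were tested in edgeR. With no filter on low counts all 8 genes were higher in the endothelial gate than the mean of the other gates, where 9.54% of 21377 genes were. Against the mural gate 6 of 8 were higher, all but *Cav2* and *Ehd2*, where 5.43% of all genes were higher and 4.52% lower. The values below are from the fit with the filter of edgeR, which 9281 genes and 6 of the 8 passed. Genes high in 1 gate pass it more easily, so calls among these 6 are given as values and not as a share. In that fit 16.4% of all genes were higher in the endothelial gate than the mean of the others, and 11.5% were higher and 9.17% lower than in the mural gate. The log2 fold changes ran from 3.25 ± 0.29 for *Cavin3* (adjusted p = 1.2e-14) to 6.42 ± 0.30 for *Mfsd2a* (adjusted p = 8.4e-26). Against the mural gate *Mfsd2a* had a log2 fold change of 7.98 ± 0.51 (adjusted p = 9.5e-19), *Plvap* 4.39 ± 0.41 (adjusted p = 2.7e-13) and *Cavin1* 1.61 ± 0.27 (adjusted p = 3.6e-06). *Cavin3* (1.14 ± 0.28, adjusted p = 0.0015), *Ehd2* (1.01 ± 0.36, adjusted p = 0.037) and *Cav2* (1.19 ± 0.44, adjusted p = 0.046) had smaller excesses. *Ehd2* and *Cav2* lost their call with only cells over 3000 transcripts (adjusted p = 0.051 for *Ehd2* and 0.05 for *Cav2*), with all wells (0.067 and 0.073) and with no filter (0.086 and 0.088), and *Cav2* also with relative log expression factors (0.062). DESeq2 called *Mfsd2a*, *Plvap* and *Cavin1* against the mural gate, and *Cav2*, *Cavin3* and *Ehd2* lost their call. *Cavin1* and *Cavin3* lost their call in edgeR without plate 1 (1.09, adjusted p = 0.33, and 1.18, adjusted p = 0.29) and without plate 2 (1.38, adjusted p = 0.1, and 1.12, adjusted p = 0.34), as did *Cav2* (adjusted p = 0.63 and 0.88) and, without plate 2, *Ehd2* (adjusted p = 0.78). *Plvap* missed the filter without plate 1 and without plate 2, and *Ehd2* without plate 1, so neither was tested there. *Mfsd2a* kept its call in both fits. In the main fit *Cav1* and *Cavin2* missed the filter, with 69, 30 and 1 and with 30, 22 and 0 transcripts in the endothelial gate of plates 1, 2 and 3. With no filter their log2 fold changes against the mural gate were 3.29 ± 0.53 for *Cav1* (adjusted p = 2.1e-08) and 2.96 ± 0.64 for *Cavin2* (adjusted p = 8.8e-05). Without plate 3 both passed the filter through the endothelial gate, so only their log2 fold changes are given, 3.34 for *Cav1* and 3.03 for *Cavin2*. The other log2 fold changes against the mural gate were then 8.05 for *Mfsd2a*, 4.66 for *Plvap*, 1.75 for *Cavin1*, 1.34 for *Cav2*, 1.08 for *Cavin3* and 1.03 for *Ehd2*.

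The sort gates were checked cell by cell against the 4 marker lists. The endothelial list had the most transcripts in 209 of 225 endothelial cells, while mural markers led in 6, neural in 6 and microglia markers in 3, and 1 cell had none. Without plate 3 the endothelial list led in 201 of 212. In the mural gate 195 of 210 cells were led by mural and 15 by neural markers. With only the 651 cells led by their own list *Cav1* passed the filter too, and its log2 fold change between the endothelial and the mural gate was 4.06. Genes high in 1 gate pass that filter more easily, so no p-value is given for it. In the neural gate 99 of 123 cells had no transcript of any endothelial marker, and 13 of these, or 13.1% (7.18 to 21.4), had *Mfsd2a*. Its share among the 24 cells with such a transcript was 16.7%. In the mural gate 155 cells had no endothelial marker transcript, and *Cavin1* was found in 35.5% of them, *Cavin3* in 28.4%, *Ehd2* in 18.1% and *Cav2* in 12.3%. At least 1 transcript of the fibroblast list, which *Col3a1* and *Col1a2* lead in bulk mural libraries, was found in 179 of 210 mural cells. The other 31 were shallower, with a median of 4648 against 7143 transcripts. *Cavin1* was found in 4 of them, or 12.9% (3.63 to 29.8), against 43.02% (35.7 to 50.6) of the 179, and *Cavin3* also in 4, against 33.5% (26.7 to 40.9). *Ehd2* and *Cav2* were each found in 2 and *Cav1* in 1. The part of fibroblasts in the mural levels was not tested.

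Within the endothelial gate the genes were found together to different degrees. *Plvap* and *Mfsd2a* were both found in 76 cells, *Plvap* alone in 20, *Mfsd2a* alone in 88 and neither in 41. Without plate 3 these numbers were 75, 20, 83 and 34. Their median depths were 9642, 5605, 5490 and 4645 transcripts, so cells with both were deeper. With every cell at 1500 transcripts, *Plvap* was expected in 17.6% of the cells with *Mfsd2a* and in 19.9% of those without. *Cavin3* was expected in 26.6% of the cells with *Plvap* and in 14.0% of those without, and *Mfsd2a* in 50.3% of the cells with *Ehd2* and 36.7% of those without. Without plate 3 these pairs of values were 18.2% and 21.2%, 26.5% and 14.4%, and 50.3% and 37.3%. These gene pairs do not stand for the others. Over all plates and also at 1500 transcripts, *Cav1* was expected in 9.83% of the cells with *Cav2* and 6.78% of those without. *Cavin1* was expected in 27.3% of the cells with *Cavin3* and 26.5% of those without, and *Cavin2* in 9.28% with *Ehd2* and 3.83% without. Endothelial cells with a transcript of the 6 cycling genes, among them *Mki67* and *Top2a*, held 238 CPM of *Plvap* and cells without 140.4. For *Mfsd2a* the values were 364 and 425, and 375 and 427 without plate 3. The *Plvap* values were 235 and 156 on plate 1 and 266 and 127 on plate 2. Cells with a transcript of the 5 tip cell genes, among them *Apln* and *Esm1*, held 242 of *Plvap*, 426 of *Mfsd2a* and 67.6 of *Cav1*, and those without 125, 289 and 43.0. Without plate 3 the values with and without such a transcript were 245, 429 and 68.1 against 138, 301 and 47.3. Over all plates a tip cell gene was found in 131 cells and none in 94, and a cycling gene in 132 and none in 93. Of the tip cell genes *Cxcr4* had 730 ± 20.9 normalized counts (SD, n = 3) in bulk neural cells, against 277 ± 46.9 in endothelial cells. A transcript of a list therefore does not by itself identify a tip or cycling cell. Both groups were picked by having a transcript and so were deeper, at a median of 8183 and 7953 against 4835 and 5240. These are descriptions of cells, not replicates.

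Other genes of the membrane traffic were taken from 4 lists. Of 12 tested relatives of caveola proteins and membrane remodelling genes, 5 were higher and 4 lower in endothelial than in mural cells, where 14.3% of all genes tested were higher and 13.5% lower. Their median was 0.03 against 0 for all genes tested. Against microglia 1 was higher and 5 lower, with a median of -1.01 (15.3% and 17% of all genes), and against neural cells 2 were higher and 7 lower, with a median of -1.63 (27.1% and 30.6%). *Ehd3*, a relative of *Ehd2*, was at 84.0 ± 137 normalized counts in endothelial and 6212 ± 1114 in mural cells, and fell by 8.42 ± 1.37 (adjusted p = 0.00099). *Pacsin3*, for a membrane-bending protein, fell by 5.11 ± 1.25 (adjusted p = 0.011). *Dnm3*, for a dynamin that cuts vesicles from the membrane, was 4.56 ± 1.33 higher (adjusted p = 0.026), and *Dnm1* was lower in endothelial cells than the mean of the others (-3.80 ± 0.36, adjusted p = 1.8e-05). Of the 10 clathrin coat and adaptor genes 6 were higher in endothelial than mural cells (14.3% of all genes) and none lower (13.5%), with a median of 0.66. Against microglia 1 of the clathrin genes was higher and 4 lower (15.3% and 17% of all genes), and against neural cells 4 were higher and 4 lower (27.1% and 30.6%). The largest differences from mural cells were those of *Dab2*, an adaptor for lipoprotein receptors (3.39 ± 0.26, adjusted p = 5.5e-06), *Ap2a1* (1.70 ± 0.32, adjusted p = 0.0027) and *Cltb* (1.23 ± 0.23, adjusted p = 0.0026). *Dab2* was higher still in microglia, at 12081 ± 3459 against 3193 ± 895 normalized counts in endothelial cells. *Ap2a1* was lower in endothelial than in neural cells (-1.99 ± 0.32, adjusted p = 0.00036). *Picalm* was lower in endothelial cells than the mean of the others (-0.77 ± 0.11, adjusted p = 0.00022).

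Of 12 cargo receptors 7 were higher and 3 lower in endothelial than in mural cells (14.3% and 13.5% of all genes), with a median of 1.67. *Lrp8*, a receptor for apolipoprotein E and reelin, had 20005 ± 2909 normalized counts in endothelial cells and 133 ± 88.8 in mural cells (7.41 ± 0.64, adjusted p = 1.2e-05), with 8535 ± 798 in neural cells. *Gpihbp1*, which carries lipoprotein lipase across capillary endothelium, was at 73.9 to 120 in the endothelial libraries and listed at 0 in the other 9. *Lrp1*, a large endocytic receptor, was lower in endothelial than mural cells (-3.73 ± 0.35, adjusted p = 2.2e-05). Of the 6 signalling proteins linked to endothelial caveolae 5 were higher than in mural cells and none lower (14.3% and 13.5% of all genes), with a median of 3.52. *Nos3*, the endothelial nitric oxide synthase that CAV1 binds, had 7807 ± 4174 against 2.40 ± 2.82 (11.35 ± 0.90, adjusted p = 6.6e-06). The VEGF receptor genes *Kdr* (6.57 ± 0.36, adjusted p = 6.2e-07) and *Flt1* (4.40 ± 0.93, adjusted p = 0.0051) followed. *Kdr* is also one of the endothelial markers used above.

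**Figure D5:**
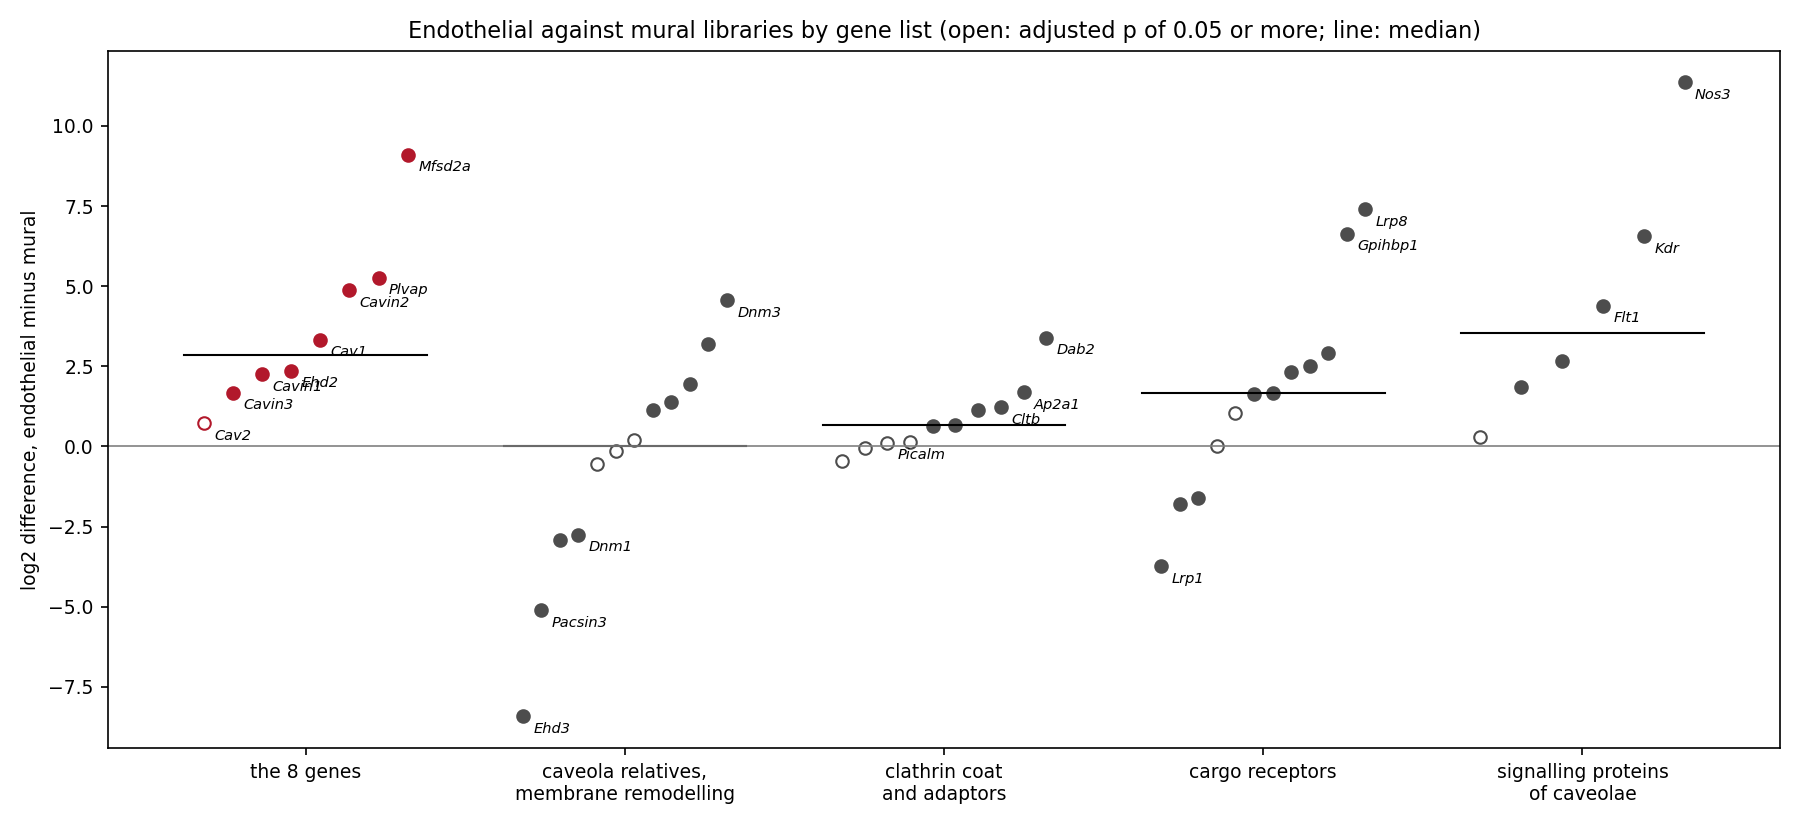
Difference between endothelial and mural libraries on the log2(normalized count + 1) scale for the 8 genes and 4 lists of related genes, with a line at each list's median. The 8 genes lie at or above 0.72, and the caveola relatives spread from -8.42 for *Ehd3* to 4.56 for *Dnm3*.

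Genes with a like pattern over the 12 libraries were ranked by the root mean square difference of log2 levels, each centred on its own mean, among 19757 genes. The nearest to *Cav1* were *Mpzl1* (0.53), *Tmem88b* (0.53) and *Myo10* (0.55), and to *Cav2* *Id1* (0.35), *Gm9844* (0.50) and *Ppfibp1* (0.54). *Ppfibp1* was also the nearest to *Ehd2* (0.50), before *Ass-ps1* (0.57) and *Card10* (0.58). *Cavin1* had *Pcdh12* (0.63), *Epas1* (0.80) and *Gm49266* (1.15), and *Cavin3* had *Vangl1* (0.75), *C1qtnf6* (0.77) and *Ctrb1* (0.79). *Cavin2* had no gene nearer than *Lepr* (1.25), followed by *Dnah2os* (1.42) and *Sncg* (1.61). *Plvap* had *Ccdc141* (1.06), *C130074G19Rik* (1.12) and *Mmrn2* (1.31), and *Mfsd2a* had *Itga2* (1.11), *Spock2* (1.27) and *Tspan2* (1.29). Among the 8 genes themselves the nearest pair was *Cav2* and *Ehd2* (0.94) and the farthest *Cavin1* and *Mfsd2a* (5.22).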

How the data were processed

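RNA was measured in bulk in 12 sorted libraries and in single sorted cells on 3 wild-type plates. The deposited bulk values are signal in the form of gene counts that the authors normalized by library. Dividing by each library's step gave whole reads, within 0.01 reads, for 100% of 124078 values of up to 100 reads. The deposited single-cell values are transcript counts that the authors corrected for identifier collisions, another unit than whole counts, and in them *Cavin1*, *Cavin2* and *Cavin3* stand under *Ptrf*, *Sdpr* and *Prkcdbp*. The submitters' processing notes name BWA 0.6.2-r126, STAR, featureCounts, DESeq2 and mm10 without giving their roles. Gene positions and exon lengths were taken from the annotation of GRCm38, and 53274 of 53465 bulk genes had a symbol.

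Bulk libraries were compared with limma 3.58.1 on log2(normalized count + 1) for the 19765 genes with a mean of at least 10, with all 4 populations in 1 fit, Benjamini-Hochberg adjustment over all genes tested and a threshold of 0.05. An enriched gene also had to differ over 10-fold. Errors of differences are SE and errors of levels SD. Single cells with more than 1500 transcripts, 686 of 994 wells, were summed by plate and gate, rounded, and tested with the quasi-likelihood test of edgeR 4.0.16 after its filter on low counts. Intervals are exact binomial at 95%, floors are 3 transcripts, and both cover counting error only. Median depth is given beside the shares. Alternatives used DESeq2 1.42.0, other filters, pseudocounts and scalings, each brain or plate left out, and, chosen after seeing the data, only cells led by the markers of their own gate. R 4.3.3 and Python 3.11.15 were used, and the tests were checked on simulated data. The numbers in the library titles name brains from which the populations were sorted together. Over 18 pairs of libraries the deviations from the group means correlated by -0.054 to 0.0801.

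The named genes are the 8 genes, the 3 genes nearest to each in pattern, and from each of 4 pathway lists the 3 with the largest difference, among those past the threshold, between endothelial and mural cells and between endothelial cells and the mean of the others. *Cav3*, *Cavin4* and marker genes were named beside these. The genes and lists were chosen with earlier results of these data known. Knockout plates were not used here.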

Additional observations from a re-analysis of the deposited data

Results flagged for a closer look

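Cells of a gate with medium or low PDGFRβ, which enters no comparison above, held *Mfsd2a*, *Cav2* and *Cavin3* above both the neural gate and the floor of 3 transcripts (18.3 CPM). They were picked by that rule, and the share of all genes past it was not counted. By the exact bound a count of 0 allows up to 22.5 CPM. Among the 23 cells of this gate from 25 wells, *Mfsd2a* had 10 transcripts in 6 cells, or 60.9 CPM (exact interval 29.2 to 112), against 20.7 in the neural gate. *Cav2* had 4 transcripts in 3 cells, or 24.4 CPM (6.64 to 62.4), against 0 in the neural gate. *Cavin3* had 5 transcripts in 4 cells, or 30.5 CPM (9.89 to 71.1), against 12.4 in the neural gate, which lies within its interval. Only the interval of *Mfsd2a* lies above the floor of 18.3 CPM and the exact bound of 22.5 CPM. No test compares these cells with others.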

How the results depend on the processing

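The number of the 8 genes enriched in endothelial cells was 7 under each alternative that kept the 10-fold limit. Over all genes it ran from 567 of 19765 with a pseudocount of 10 to 1675 of 19765 in edgeR. At 2-fold it was 8 of the 8, and the share of all genes past that limit was not counted. Of the 80 values for endothelial against mural cells in bulk, 69 kept their side of the threshold and 11 lost their call. The number of the 8 genes called was 7 in that comparison, where 5496 of all 19765 genes were. It was 5 with quantile normalization (5591 of all genes), and 4 to 5 with 1 brain left out (3517 to 3996). With a replicate block for the brain it was again 7 (5174 of all genes), and the block for brain or plate changed no call of any of the 8 genes. In single cells 6 of the 8 were called against the mural gate with no filter, where 5.43% of all genes were higher and 4.52% lower. With the filter, which high endothelial levels help to pass, no share is given. In DESeq2 *Mfsd2a*, *Plvap* and *Cavin1* kept their call. Without plate 1 and without plate 2 only *Mfsd2a* kept its call among the genes that passed the filter. Without plate 3 the genes called in the main fit kept theirs. The endothelial share had an interval above those of all other gates for 7 genes, all but *Ehd2*, and for 2.18% of all 21377 genes. It did so for 3 of the 8 with every cell thinned to 1500 transcripts, and for 4 to 8 with 1 plate left out. The share of all genes was not counted in those settings. These intervals cover counting error over cells, which are not replicates of a gate.

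Values that turned their sign were small or rested on 1 brain. *Mfsd2a* in mural cells against microglia (-0.32) was 0.019 with a pseudocount of 10, 0.46 in edgeR and 0.33 in DESeq2, and ran from -3.08 to 2.32 with 1 brain left out, the highest without the second. *Cav1* in mural against neural cells (-0.04) was 0.52 with quantile normalization, 0.046 in edgeR and 0.037 in DESeq2, and ran from -0.25 to 0.14 with 1 brain left out, the highest without the third. *Ehd2* in microglia against neural cells (0.21) ran from -0.14, without the second brain, to 0.54 with 1 brain left out, and was 0.69 with quantile normalization. The endothelial minus mural difference in cavin share ran from -6.65 to 12.5 points for *Cavin1*, from 2.14 to 4.60 for *Cavin2* and from -15.0 to 2.35 for *Cavin3* with 1 brain left out, the turned signs being those without the second brain. The cause was not tested for any of these. The median of all genes lay at -0.17 for endothelial against neural cells and at -0.13 for mural against neural cells. In single cells depth limits the shares: with every cell at 1500 transcripts the endothelial share was 5.60% for *Cav2*, 6.95% for *Cav1* and 4.34% for *Cavin2*, against 22.7%, 26.2% and 15.1% at full depth.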
